A study of Drosophila melanogaster with 9 samples.

Results

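CG15533, CG15534 and CG31148 are 3 of the 10245 genes measured in whole guts of adult female Drosophila melanogaster. CG15533 and CG15534 are annotated as acid sphingomyelinase-like, and CG31148 (Gba1a in RefSeq) is a glucocerebrosidase gene. They were chosen by name because their levels differed between diets in these same libraries. Their differences between diets are therefore given as a description, with no test.

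The guts came from Oregon R females, a laboratory wild-type strain, kept on 1 of 3 diets: 10% glucose (3 libraries), agar (3 libraries) or standard medium (3 libraries). Strain, sex and tissue were shared by all groups. The labels used here do not give fly age, time on each diet or how many guts were pooled. Levels are RPKM, reads scaled to transcript length and library depth, and groups are summarised as mean ± SD with n = 3 per diet.

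Sphingolipids are membrane lipids built on ceramide. Acid sphingomyelinases remove the phosphate-bearing head group of sphingomyelin and leave ceramide, working in lysosomes or outside the cell. Glucocerebrosidase removes glucose from glucosylceramide, which also leaves ceramide, and its loss in people causes Gaucher disease. Flies make mostly ceramide phosphoethanolamine in place of sphingomyelin, and their gut meets sphingolipids both in its own cells and in food. By annotation all 3 genes thus belong to the breakdown side of the pathway, and the activity of their enzymes was not measured here.

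CG15533 stood at 32.7, 30.8 and 56.6 RPKM in glucose repeats 1, 2 and 3, at 66.0, 75.0 and 138.6 in agar repeats 1, 2 and 3, and at 3.83, 2.67 and 4.59 in standard repeats 1, 2 and 3. The agar libraries were the highest, the glucose libraries lay between, and no values of any pair of diets overlapped. Its means were 40.03 ± 14.4 on glucose, 93.2 ± 39.6 on agar and 3.70 ± 0.963 on standard medium. The ratio of means was 10.8 for glucose over standard medium and 25.2 for agar over standard medium. Between glucose and agar it was 0.429. On standard medium the gene ranked above 41.4% of the 8036 tested genes, those that reached 1 RPKM in 3 or more libraries, and on agar above 94.4% of them.

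CG15534, the neighbouring gene of the same family, had the highest level of the 3 on every diet. It stood at 293.5, 180.4 and 288.8 RPKM on glucose, at 225.7, 159.0 and 206.4 on agar and at 84.2, 52.4 and 75.6 on standard medium, in the order of repeats 1, 2 and 3. The glucose and agar libraries overlapped, and both diets lay above every standard library. Means were 254 ± 64.0 on glucose, 197 ± 34.3 on agar and 70.7 ± 16.4 on standard medium. The ratio of means was 3.59 for glucose over standard medium, 2.78 for agar over standard medium and 1.29 for glucose over agar. Unlike CG15533, the gene was already above 92.5% of the 8036 genes on standard medium.

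CG31148 had 13.6, 12.4 and 16.0 RPKM on glucose, 45.9, 53.6 and 86.0 on agar and 5.49, 5.81 and 7.42 on standard medium, again in repeat order. Agar stood apart from both other diets, and the glucose libraries lay just above the standard ones without overlap. Means were 14.0 ± 1.84 on glucose, 61.8 ± 21.3 on agar and 6.24 ± 1.03 on standard medium. The ratio of means was 2.24 for glucose over standard medium, 9.91 for agar over standard medium and 0.226 for glucose over agar.

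**Figure D1:**
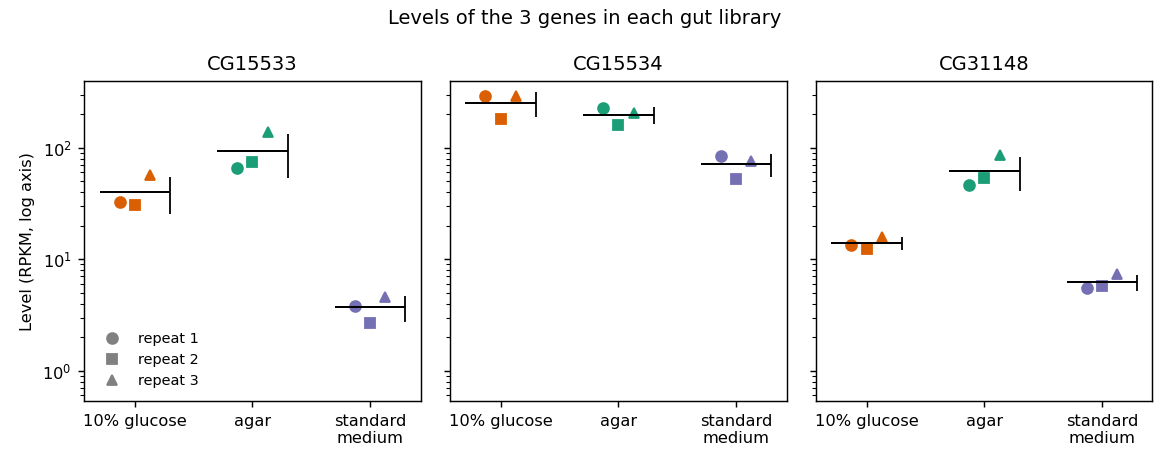
Level of each gene in RPKM (log axis) in the 9 gut libraries by diet. Markers are repeats, horizontal lines are means and vertical lines are ± SD (n = 3 per diet). CG15533 and CG31148 are highest in the agar libraries, while the glucose libraries of CG15534 (180.4 to 293.5 RPKM) overlap its agar libraries (159.0 to 225.7 RPKM).

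The order of diets thus differed between the genes in these libraries. It was agar, glucose, standard medium for CG15533 and for CG31148, with no neighbouring diets overlapping. For CG15534 the glucose and agar libraries overlapped, although glucose was the higher diet within each of the 3 repeat numbers, and standard medium was lowest. On the log2(RPKM + 1) scale the differences for glucose minus agar, glucose minus standard and agar minus standard were -1.18, 3.09 and 4.27 for CG15533 (SE 0.43, 0.33 and 0.37). They were 0.35, 1.824 and 1.48 for CG15534 (SE 0.27, 0.31 and 0.25). For CG31148 they were -2.03, 1.05 and 3.07 (SE 0.29, 0.15 and 0.29). Each SE comes from the spread within the 2 diets and takes no account of the repeat number, so it is not the SE of the differences within repeats. The median over the 8036 genes was -0.02, 0.25 and 0.28 in the same comparisons. The 2 comparisons with standard medium share its libraries, and the 2 with glucose share the glucose libraries.

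Read against all genes, a lack of overlap was common in 2 of the comparisons. All 3 genes lay above every standard library on glucose, as did 50.3% of the 8036 genes, and on agar, as did 47.4%. CG15533 and CG31148 lay below every agar library on glucose, as did 10.5%. Nothing is read from these counts, since the genes were chosen on these values. Ranks by size of difference among the 8036 genes follow for glucose minus agar, glucose minus standard and agar minus standard. They were 60, 3 and 7 for CG15533, 813, 130 and 232 for CG15534, and 17, 232 and 12 for CG31148. Nothing is read from these ranks either, for the same reason.

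Several features of whole libraries touch these values. Totals recovered from the values ran from 34899709 to 48389188 reads. The values of CG15533 were whole read numbers in all 9 libraries at a transcript length of 2204 bases, the nearest such length to the annotated 2203. Those of CG15534 and CG31148 were whole at their annotated 2164 and 1777 bases. CG15533 rested on 258 reads in standard repeat 2, its lowest library, with an exact Poisson 95% interval of 2.35 to 3.02 RPKM, and on 13285 reads in agar repeat 3 (136.3 to 141.0 RPKM). These intervals cover counting error only, and the SD between repeats was 0.963 RPKM on standard medium and 39.6 RPKM on agar. Standard repeats 2 and 3 lay apart from the other libraries on the first principal component (42.5 and 40.01, against 7.16 for standard repeat 1 and -20.1 to -10.4 for glucose and agar), and agar repeat 3 on the second (33.9). With standard repeat 1 as the only standard library, glucose minus standard was 3.03, 1.55 and 1.20 for CG15533, CG15534 and CG31148, and agar minus standard was 4.21, 1.20 and 3.22. Without agar repeat 3, glucose minus agar was -0.85, 0.39 and -1.76 for the same genes.

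The repeat number moved with the levels. CG15533 and CG31148 were highest in repeat 3 on all 3 diets. CG15534 was highest in repeat 1 and lowest in repeat 2 on all 3 diets. The 5 neuron markers, led by Syx1A, summed to 7.10, 6.90 and 9.04 RPKM on glucose, 5.05, 6.55 and 9.22 on agar and 4.85, 6.09 and 8.18 in the standard libraries, in repeat order, so their sum was also highest in repeat 3 on each diet. The sum of the 8 muscle markers, led by Act57B, was lowest there, at 322, 365 and 315 RPKM on glucose, agar and standard medium. Not every marker followed its sum. Of the muscle markers, Tm1, bt and sls were highest in repeat 3 among the agar libraries. Of the neuron markers, n-syb was lowest in repeat 3 among the glucose libraries. The part of neuron and muscle tissue in the levels of the 3 genes was not tested.

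Markers of the labelled tissue were present. The 8 gut epithelium markers summed to 384 to 419 RPKM on glucose, 393 to 437 on agar and 301 to 341 on standard medium. They were led by the unconventional myosin gene Myo61F at 131.8 to 200.7 RPKM. The standard libraries were lowest in this sum, but Myo31DF and GATAe overlapped in every pair of diets. Over the 7 tested markers the median difference was 0.23 for glucose minus standard and 0.32 for agar minus standard. Over all genes it was 0.25 and 0.28. The marker medians were -0.11 and -0.05 after median-ratio scaling of the libraries, and 0.19 and 0.17 after quantile normalization. The 4 markers of acid-secreting copper cells summed to 70.9 to 81.6 RPKM on glucose, 73.7 to 89.7 on agar and 61.3 to 75.4 on standard medium, which overlapped and were led by Vha100-4. Of other tissues, 4 of 6 fat body markers summed to 332 to 385, 259 to 371 and 283 to 398 RPKM on glucose, agar and standard medium, led by to. The 5 Malpighian tubule markers summed to 8.71 to 9.82, 7.76 to 8.67 and 5.78 to 6.57, with Best2 highest, at up to 4.66. The 2 ovary and 3 haemocyte markers in the files were near 0, with summed levels of at most 2.33 RPKM for ovary (glucose repeat 2, mostly osk) and 0.346 RPKM for haemocytes (led by Sr-CI). The part of these tissues in the levels was not tested, and in whole guts fewer cells of a type and less RNA per cell cannot be told apart.

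CG15533 and CG15534 lie next to each other on chromosome arm 3R with no annotated gene between them, in the order of RefSeq Release 6. Tandem copies can share reads, and how alike the pair are in sequence was not analysed here. Their proportion was not fixed. CG15533 made up 10.0%, 14.6% and 16.4% of the pair's summed RPKM on glucose, 22.6%, 32.1% and 40.2% on agar and 4.35%, 4.85% and 5.72% on standard medium, in repeat order. The 3 diets did not overlap in this share. The summed RPKM of the pair was 326, 211 and 345 on glucose, 292, 234 and 345 on agar and 88.0, 55.1 and 80.2 on standard medium, so glucose and agar overlapped in the sum while the makeup differed.

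CG31148 was also not in a fixed proportion to CG15533, although both were highest on agar. Its level was 0.414, 0.402 and 0.282 times that of CG15533 on glucose, 0.695, 0.714 and 0.620 times on agar and 1.43, 2.17 and 1.62 times on standard medium. CG31148 was thus the higher of the 2 on standard medium alone among the 3 diets.

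**Figure D2:**
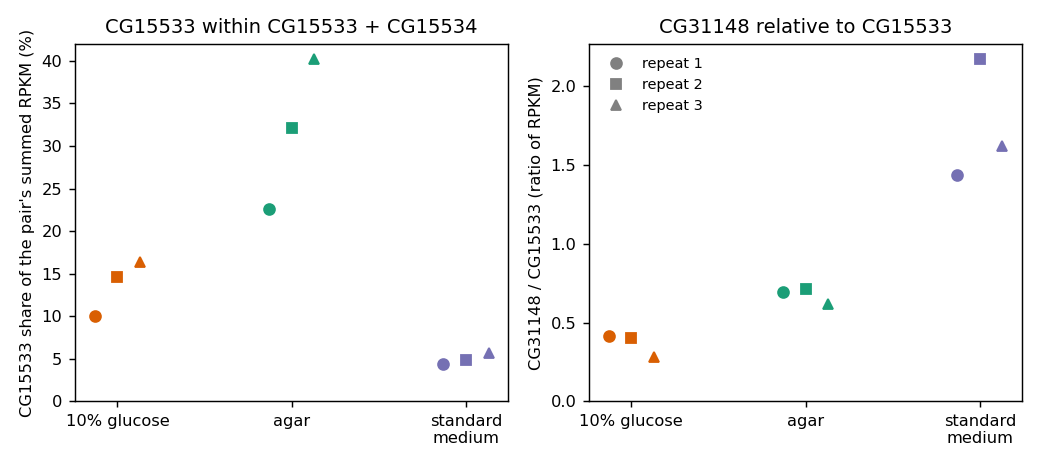
Left, CG15533 as a percentage of the summed RPKM of CG15533 and CG15534. Right, the RPKM of CG31148 divided by that of CG15533. Each marker is 1 library (repeats 1 to 3) by diet, and in both panels the 3 diets occupy separate ranges, with agar highest on the left (22.6% to 40.2%) and standard medium highest on the right (1.43 to 2.17).

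The other genes of these families in the files were low in level (CG3376 and CG31414) or flat across diets (CG33090). CG3376, another acid sphingomyelinase gene, had 0.447, 0.489 and 0.393 RPKM on glucose, 0.539, 0.417 and 0.771 on agar and 0.280, 0.232 and 0.325 on standard medium. Its level never reached 1 RPKM, so it was left out of the test across genes. CG31414 (Gba1b), the other gene of the lysosomal type, lies 2 annotated genes along from CG31148. It had 0.145, 0.342 and 0.198 RPKM on glucose, 0.520, 0.494 and 0.312 on agar and 0.109, 0.0995 and 0.109 on standard medium.

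Both low genes lay above every standard library on glucose and on agar, as CG31148 did. Of the 8036 tested genes, which leave out both, 50.3% and 47.4% did so. The ratio of means for agar over standard medium was 2.06 for CG3376 and 4.17 for CG31414. For glucose over standard medium it was 1.59 and 2.16, and for glucose over agar 0.770 and 0.517, with overlap. The constant of 1 in log2(RPKM + 1) makes differences at such low levels small. In limma without a filter on low values, where 31.4% of 10245 genes were called for agar minus standard, CG3376 (0.30, adjusted p = 0.0240) and CG31414 (0.38, adjusted p = 0.0100) passed for that comparison. Neither passed for glucose minus standard, where 15.6% were called (0.17 and 0.15, limma adjusted p = 0.132 and 0.154), or glucose minus agar, where 0.0976% were (-0.12 and -0.23, limma adjusted p = 0.729 and 0.300). CG31148 was 36.1 to 93.2 times the level of CG31414 on glucose, 88.1 to 276 times on agar and 50.3 to 68.1 times on standard medium.

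CG33090, related to the glucosylceramidase that works outside lysosomes, was at 4.07 ± 0.679 RPKM on glucose, 4.02 ± 0.291 on agar and 3.91 ± 0.347 on standard medium. All 3 diets overlapped, and it was not called in any comparison (0.01, 0.04 and 0.03 for glucose minus agar, glucose minus standard and agar minus standard, SE 0.11 each, limma adjusted p = 1.000, 0.789 and 0.836). After median-ratio scaling the last 2 were -0.23 and -0.27, with adjusted p of 0.368 and 0.219. The fourth acid sphingomyelinase gene, CG32052, was not analysed here.

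**Figure D3:**
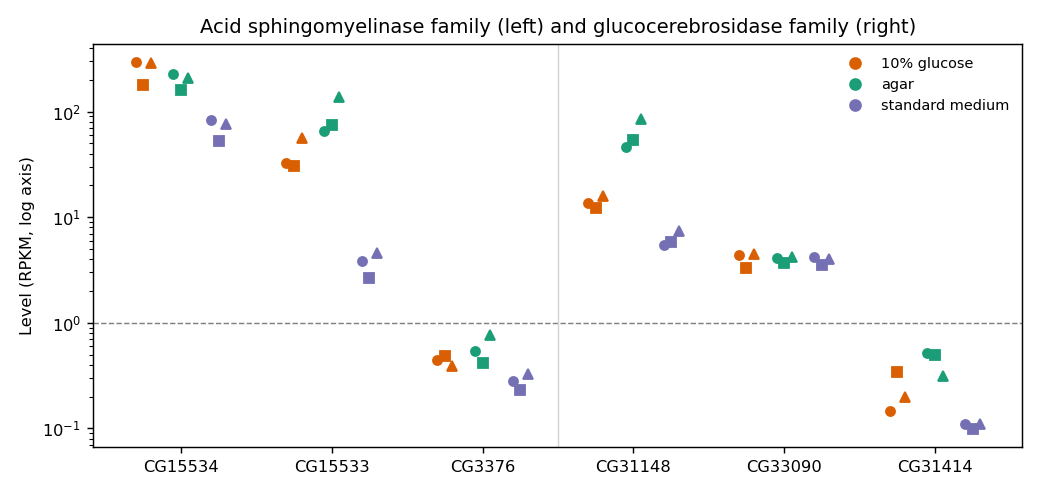
Level in RPKM (log axis) of the acid sphingomyelinase family and the glucocerebrosidase family in the 9 libraries. Colours are diets and marker shapes are repeats as in the plot of levels by library, and the dashed line is the filter of 1 RPKM. CG33090 stays between 3.29 and 4.51 RPKM on all diets, while CG3376 and CG31414 stay below 1 RPKM.

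The genes around the pair did not share its range. The nearest gene in the files on one side, CG2218, was at 5.80 ± 0.615 RPKM on glucose, 5.87 ± 0.607 on agar and 4.72 ± 0.754 on standard medium (limma adjusted p = 0.996, 0.128 and 0.0968 for glucose minus agar, glucose minus standard and agar minus standard, and 0.959, 0.0383 and 0.0262 with the repeat number as a block). The nearest on the other side, CG15537, stayed between 0.0847 and 0.249 RPKM. Around CG31148 the nearest genes in the files, prt, a vesicular transporter gene, and CG31413 (Qsox4), reached at most 0.353 and 0.126 RPKM. The neutral ceramidase gene CDase, which splits ceramide into sphingosine and fatty acid, is the fifth annotated gene after CG15534 on the same arm. It was named here after its values were seen.

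**Figure D4:**
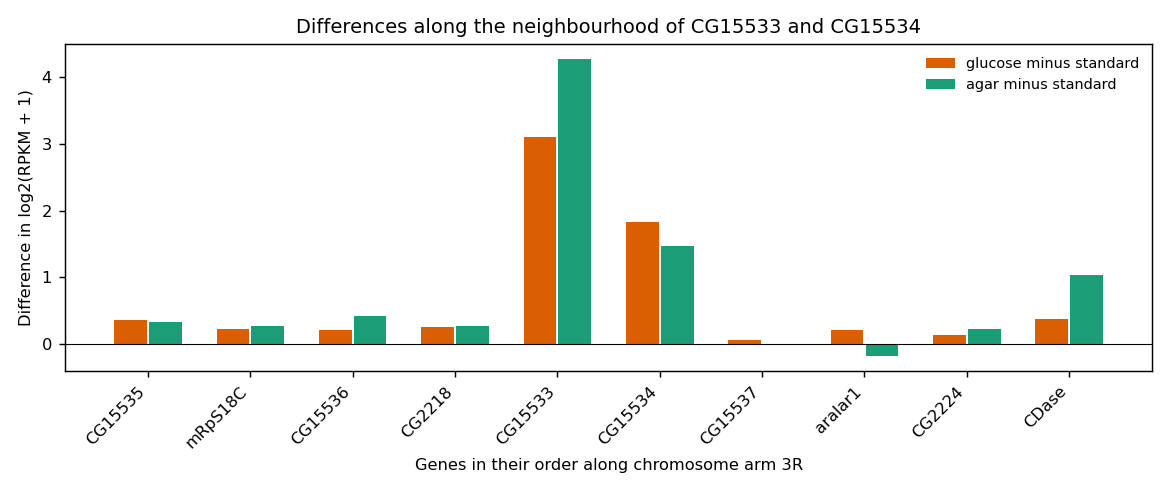
Difference in log2(RPKM + 1) for glucose minus standard and agar minus standard for genes in their order along chromosome arm 3R around CG15533 and CG15534. Bars are differences of means of 3 libraries per diet and genes without values are left out. The bars of CG15533 (3.09 and 4.27) and CG15534 (1.824 and 1.48) stand above those of the genes between CG15535 and CDase, of which CDase is the next highest (0.38 and 1.03).

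Of 26 other sphingolipid genes in the files, 24 passed the filter and were compared by limma across all 8036 genes with Benjamini-Hochberg adjustment. For agar minus standard 12 were called higher and 0 lower, with a median difference of 0.30, where 39.9% of all genes were called, 37.7% higher and 2.23% lower, at a median of 0.28. For glucose minus standard 5 were called higher and 0 lower (median 0.26), beside 22.2% of all genes, 21.3% higher and 0.896% lower (median 0.25). For glucose minus agar limma called 0, with 2 at an unadjusted p under 0.05 (median -0.06), beside 0.286% of all genes (median -0.02). By limma with the repeat number as a block 1 was called lower there, CDase, where that fit called 140 of the 8036 genes lower. The 12 and 5 of 24 lie near the shares of all genes called without the block, and the list medians lie within 0.05 of the median of all genes.

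These calls depended on how libraries were scaled. After median-ratio scaling the median of all genes was -0.004 for glucose minus standard and -0.01 for agar minus standard. The sphingolipid calls were then 0 for glucose minus standard, and cert higher and beta4GalNAcTA, a glycosyltransferase gene, lower (-0.75, limma adjusted p = 0.0201) for agar minus standard, while all genes gave 140 higher and 230 lower, against 3031 and 179 before scaling. After quantile normalization agar minus standard gave CDase and cert higher and beta4GalNAcTA lower, while all genes gave 220 higher and 128 lower. The differences of CG15533, CG15534 and CG31148 for agar minus standard were 3.95, 1.11 and 2.74 after median-ratio scaling and 4.10, 1.56 and 2.87 after quantile normalization. The 5 calls for glucose minus standard became 0 without any 1 glucose library or without standard repeat 2 or 3. They became 2 without standard repeat 1, 8 without agar repeat 3 and 13 with the block. The fit with the block called 3386 of the 8036 genes higher and 290 lower in that comparison. The 12 for agar minus standard became 7 without agar repeat 2 or standard repeat 3.

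CDase had 23.8, 29.1 and 30.9 RPKM on glucose, 42.2, 38.2 and 53.8 on agar and 20.2, 19.3 and 24.2 on standard medium. It rose on agar against standard medium (1.03, SE 0.16, limma adjusted p = 0.00521, 0.0247 after quantile normalization and 0.0609 after median-ratio scaling). For glucose minus agar it was -0.65, with all glucose libraries below all agar libraries (limma adjusted p = 0.150, and 0.0335 with the block). Of the other ceramide and sphingosine breakdown genes, the sphingosine kinase gene Sk1 rose on glucose (0.30, adjusted p = 0.0315) and on agar (0.41, adjusted p = 0.00766) against standard medium. Neither call of Sk1 held under either scaling (0.00 and 0.08 after median-ratio scaling). Sply, which cleaves sphingosine-1-phosphate, was not called (-0.17 and -0.03).

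Among ceramide synthesis genes 5 of 6 were called higher for agar minus standard and 1 of 6 for glucose minus standard, beside 37.7% and 21.3% of all genes, and 0 of these calls held after median-ratio or quantile scaling. The desaturase gene ifc was the highest of them, at 74.9 ± 7.39 RPKM on glucose, 84.9 ± 5.77 on agar and 56.8 ± 5.56 on standard medium (0.57 for agar minus standard, limma adjusted p = 0.0114, and 0.21 after median-ratio scaling). The others were Spt-I, a serine palmitoyltransferase subunit gene, CG10425, schlank, a ceramide synthase gene, and ORMDL, with differences of 0.34 to 0.40. Spt-I was also called on glucose against standard medium (0.37, limma adjusted p = 0.0364). After median-ratio scaling Spt-I and schlank were -0.01 each for agar minus standard, opposite in sign.

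Of 10 genes for sphingolipid head groups and transfer, 4 were called higher for agar minus standard and 3 for glucose minus standard, beside 37.7% and 21.3% of all genes. The ceramide transfer protein gene cert had the largest difference of the 10 in both comparisons. It was at 10.9 ± 1.25 RPKM on glucose, 13.4 ± 2.39 on agar and 6.66 ± 0.486 on standard medium. It rose on agar (0.90, SE 0.14, limma adjusted p = 0.00497, 0.04998 after median-ratio scaling, just inside the threshold, and 0.0397 after quantile normalization) and on glucose (0.63, limma adjusted p = 0.0225, and 0.250 and 0.195 after these scalings) against standard medium. The glycosphingolipid mannosyltransferase gene egh (0.48 and 0.56 for glucose and agar minus standard) and the fatty acid hydroxylase gene fa2h (0.40 and 0.40) were called in both comparisons, and alpha4GT1 (0.44) for agar. None of these 3 held under either scaling. The neutral sphingomyelinase gene CG12034 was called for agar minus standard (0.34, adjusted p = 0.0226, and 0.02 after median-ratio scaling).

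In the lysosome list the gene that differed most on agar was Gal. It encodes a beta-galactosidase and had 14.2, 17.7 and 15.9 RPKM on glucose, 49.5, 64.0 and 56.1 on agar and 11.2, 11.1 and 12.9 on standard medium. Its agar libraries stood apart from both other diets. It fell on glucose against agar (-1.76, limma adjusted p = 0.00270) and rose on agar against standard medium (2.17, adjusted p = 4.56e-04), under each scaling as well. Repeat 3, highest for CG31148 on every diet, was highest for Gal on standard medium alone.

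Of 21 lysosome genes tested, 1 was called lower for glucose minus agar (Gal), 4 higher for glucose minus standard and 10 higher for agar minus standard, beside 0.249%, 21.3% and 37.7% of all genes in those directions. The medians were -0.11, 0.32 and 0.42. Beside Gal the called genes were Hexo1, Ppt2 and Fuca, which encode hydrolases, and spin, a lysosomal transporter gene, in both comparisons with standard medium. Lamp1, Npc1a, cln3, CG7997 and trpml were called for agar minus standard. Their differences ran from 0.32 to 0.73. After median-ratio scaling 0 lysosome genes were called for glucose minus standard, and Gal higher and CG8596, a Cln7 homologue, lower (-0.49, adjusted p = 0.0484) for agar minus standard. After quantile normalization Gal and Ppt2 were called higher for agar minus standard. Over the 8036 genes that comparison gave 140 higher and 230 lower after median-ratio scaling, and 220 and 128 after quantile normalization. The 4 calls became 0 without any 1 glucose library or standard repeat 3, 1 without standard repeat 1 and 2 without agar repeat 2 or standard repeat 2. The 10 became 6 without agar repeat 2, standard repeat 1 or standard repeat 3. The fit with repeats as a block called 10 higher and 1 lower for glucose minus standard, and 16 higher and 1 lower for agar minus standard. Over the 8036 genes the same fit called 3386 higher and 290 lower in the first comparison, and 4096 and 384 in the second.

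**Figure D5:**
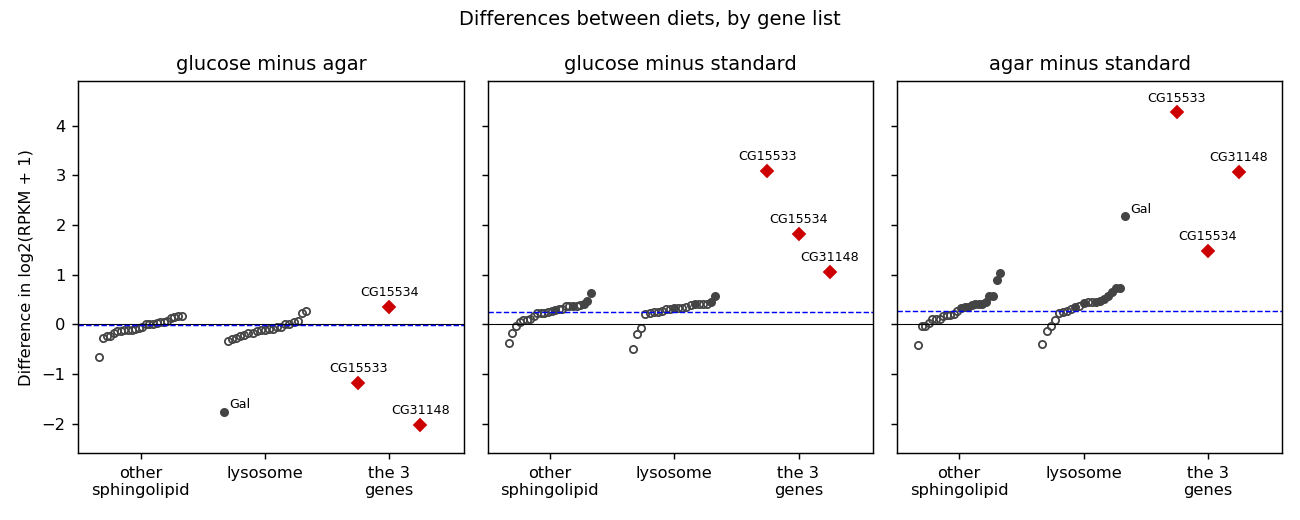
Difference in log2(RPKM + 1) for the 24 other sphingolipid genes, the 21 lysosome genes (filled circles are called by limma at an adjusted p under 0.05, open circles are not) and the 3 genes (red, no test), in the 3 comparisons. The dashed line is the median of all 8036 genes (-0.02, 0.25 and 0.28). CG15533, CG15534 and CG31148 lie above all the other sphingolipid genes in both comparisons with standard medium, and Gal is the lysosome gene nearest to CG31148 in the first and last.

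The genes whose levels followed each gene most closely were sought by Pearson's r of log2(RPKM + 1) over the 9 libraries among the 8036 genes. The libraries share diet and repeat, so r describes these libraries only. For CG15533 they were CG34140, scramb1, CG15611, CG31809 and CG5510 (r 0.988 to 0.992). For CG15534 they were CG1129, CG5758, Cfp1, CG12007 and CG18745 (0.973 to 0.992). For CG31148 they were CG33306, CG12224, the epoxide hydrolase gene Jheh2, the galactokinase gene Galk and Atac1 (0.986 to 0.993).

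Likeness in r was not likeness in size. CG34140 ran from 6.60 to 9.55 RPKM over the 9 libraries, while CG15533 ran from 2.67 to 138.6. CG33306, the closest to CG31148, was at 385, 391 and 412 RPKM on glucose, 559, 551 and 707 on agar and 286, 312 and 324 on standard medium, thus highest on agar and in agar repeat 3 like CG31148. Among the 3 genes r was 0.906 between CG15533 and CG31148, 0.862 between CG15533 and CG15534 and 0.599 between CG15534 and CG31148. Many genes had a higher r with each. Among the 8036 genes, CG31148 ranked 783 for CG15533, and CG15533 ranked 321 for CG31148. CG15534 ranked 1531 for CG15533, which ranked 557 for CG15534. For CG15534 and CG31148 the ranks were 3688 and 3495. With the diet means taken out, which leaves the repeats within diets, the 3 r values were 0.892, 0.448 and 0.209. CG15533 and CG31148 therefore varied together within diets as well, with repeat 3 highest, and CG15534 less closely with either. Gal and CDase had r of 0.966 each with CG31148, ranking 49 and 46 among the 8036 genes, and 0.226 and 0.754 within diets.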

How the data were processed

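The authors deposited 1 log2 RPKM value per gene and library. Per the submitters' processing notes CASAVA 1.82, Bowtie2 2.1 and limma were used; library preparation was TruSeq Stranded mRNA, per the labels' protocols. For genome build, annotation and strand use, the sources used here give nothing. Values had the form log2((reads + 0.5) / (total + 1) / length), solved for totals with BDGP6.54 transcript lengths, and 2031 of 3317 genes with 1 transcript (61.2%) gave whole reads in all 9 libraries within 0.001 reads. RPKM was 2 to the power of the deposited value.

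The 8036 genes that reached 1 RPKM in 3 or more libraries were fitted on log2(RPKM + 1) in limma 3.58.1 (R 4.3.3; a mean per diet, variance trend, residual df 6, prior df 2.752), and called at a Benjamini-Hochberg adjusted p under 0.05. The form of each difference is the first diet minus the second. The procedure was tested on simulated data. Repeats are biological per the series design. Repeat numbers were taken to pair libraries, since residuals of same-numbered libraries correlated in every pair (0.1723 to 0.5905). The ranges were not fully apart. Agar repeat 3 and standard repeat 2 correlated at 0.2872, above agar repeat 2 and standard repeat 2 at 0.1723. The main fit did not use the pairing. The 3 genes, the gene lists and the tests were chosen with earlier results of these data known. Named genes were the 2 families, called genes of the sphingolipid and lysosome lists and otherwise the highest member of each list, the 5 most similar genes per gene, the nearest neighbours and the leading marker of each list. Sequences were not used here.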

Additional observations from a re-analysis of the deposited data

How the results depend on the processing

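The 9 differences of CG15533, CG15534 and CG31148 kept their sign under all 21 alternatives. Not all of these could change a difference of means. The filters, the block, the variance trend and the fit of the 6 compared libraries left it the same. So did leaving out a library of a diet that was not compared. The differences that moved by more than 1 SD between repeats were as follows. With a pseudocount of 5, CG15533 was 2.33 and 3.43 for glucose and agar minus standard, and CG31148 was 0.75 and 2.53. After median-ratio scaling CG15534 was 1.11 for agar minus standard and CG31148 0.75 for glucose minus standard, and after quantile normalization CG31148 was 0.81 for glucose minus standard. What moved these differences was not tested. For glucose minus agar CG15534 ranged from 0.20 (without agar repeat 2) to 0.58 (without glucose repeat 2), with 0.23 without glucose repeat 1.

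The counts of called genes depended more on the processing, over all 8036 genes as well. For glucose minus standard all genes gave 3386 higher and 290 lower with the block. They gave 23 and 52 after median-ratio scaling, and 29 and 28 after quantile normalization. For agar minus standard all genes gave 4096 and 384, 140 and 230, and 220 and 128 in the same order. Counts over all genes are not given here for library weights, the fit of 6 libraries or 1 library left out. For glucose minus standard, other sphingolipid genes gave 0 after either scaling and with standard repeat 1 as the only standard library (an alternative chosen after seeing the data), 13 with the repeat number as a block, 14 with library weights and 0 to 8 with 1 library left out. For agar minus standard they gave 2 after median-ratio scaling, 3 after quantile normalization, 6 with a fit of the 6 compared libraries, 0 with standard repeat 1 alone and 7 to 13 with 1 library left out. For glucose minus agar the block gave 1, beside 51 of the 8036 genes called higher and 140 lower. Lysosome genes for glucose minus standard gave 0 after either scaling and with standard repeat 1 alone, 11 with the block or library weights, 8 with 6 libraries and 0 to 6 with 1 library left out. For agar minus standard they gave 2 after either scaling, 17 with the block, 5 with 6 libraries, 0 with standard repeat 1 alone and 6 to 11 with 1 library left out. After median-ratio scaling Spt-I (-0.012), schlank (-0.0099) and spin (-0.00039) changed sign for agar minus standard. Without a filter CG3376 (0.30) and CG31414 (0.38) passed for agar minus standard; with it they were not tested. The cause of these changes was not tested. Counting error was not computed for the genes below 1 RPKM.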
